A study of Mus musculus with 30 samples.

Results

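The comparison described here is 7 Gy of x-rays against no irradiation in blood of p38DKI mice. It rests on the 10 arrays whose titles name that genotype, of 30 arrays in the series. The 5 irradiated p38DKI samples were taken 24 h after 7 Gy, and the 5 unirradiated p38DKI samples came from mice given no dose. All mice were male C57BL/6J, and whole blood was drawn by cardiac puncture into PAXgene solution, which lyses the cells and stabilises their RNA. The other 20 arrays hold p38WT and p38DN blood under the same treatments. Both p38DKI groups carry the same genotype, and the labels describe neither its alleles nor the ages of the mice. The design text states 5 independent experiments per genotype and treatment. No label says whether each was 1 animal or a pool, so the p-values measure only the spread between these samples. Blood is a mixed tissue, so fewer cells of a type and less RNA per cell cannot be told apart in any result that follows.

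The p38 kinases are stress-activated MAP kinases that respond to cytokines, osmotic stress and DNA damage. Ionising radiation also stabilises the transcription factor p53, which turns on genes of cell-cycle arrest, apoptosis and repair, and radiation can switch on genes that are normally driven by interferon. Among blood cells, B lymphocytes and naive T lymphocytes are known to be lost readily after irradiation. Neutrophils, platelets and red cells are not dividing when they circulate, and their precursors in the marrow are.

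Each level given here is the log2 of a gene's processed array signal minus the log2 of that array's 75th percentile. A level of 0 is therefore the 75th percentile of the array, and a change of 1 is a factor of 2. Levels are relative within an array, and levels of different genes are not compared. A gene entered the test if 4 or more arrays of either p38DKI group had its probe well above background. The 17593 genes that remained were tested with limma in 1 fit of all 30 arrays, and a change was called at a Benjamini-Hochberg adjusted p under 0.05. Every adjusted p in the text comes from that fit unless another is named. Means are given ± SD with n = 5 arrays per group.

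Irradiated array 2 stood apart from the other p38DKI arrays. Its 34 hepatocyte transcripts averaged a level of 7.64 and all 34 were well above background, against averages of -2.38 to 0.87 on the other irradiated arrays and -2.64 to 2.31 on the unirradiated ones. Its median correlation with the arrays of its own group was 0.865, against 0.969 to 0.979 for the other 9 arrays. Results are given with this array and, where it matters, without it. Of the markers of blood itself, red cell Alas2, platelet Pf4 and neutrophil S100a8 were well above background on all 10 arrays.

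Irradiation was accompanied by changes across much of the measured blood transcriptome. Of the 17593 genes, 5795 (32.9%) were called, 2273 (12.9%) higher and 3522 (20%) lower in irradiated p38DKI blood. The shares of 12.9% and 20% are the background for every list count with all arrays below. Called genes with a change of at least 2-fold numbered 1403 higher (7.97%) and 1769 lower (10.1%). In 3607 genes (20.5%) the irradiated and unirradiated arrays did not overlap. Without irradiated array 2, 5599 genes (31.8%) were called, 2764 (15.7%) higher and 2835 (16.1%) lower, and 5576 genes (31.7%) did not overlap. Both fits called 4530 genes in the same direction, 1265 were called only with array 2 included, and 1069 only without it. The median change of all genes was -0.23 with every array and -0.17 without array 2. It was 0.19 when arrays were scaled to their median and 0.40 with no scaling, so a small shift shared by a whole gene list depends on the scaling.

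The 2 groups were unevenly spread over 3 slides. Unirradiated arrays 1 and 2 lay on slide 3, unirradiated arrays 3, 4 and 5 lay with irradiated array 1 on slide 4, and irradiated arrays 2 to 5 lay on slide 5. With slide as a fixed block, 743 genes were called, 471 higher and 272 lower. Within slide 4 alone, 1 irradiated against 3 unirradiated arrays, 1301 genes were called, with the lone irradiated array assumed to vary like the others. Slide 4 was the only one with p38DKI arrays of both groups. The p38DKI change in the slide-block fit therefore rests on irradiated array 1 against unirradiated arrays 3, 4 and 5. It is no separate check on all arrays, and whether a lost call reflects slide was not tested. The counts of gene lists with the slide block stand beside the main counts below. Their background is the 471 higher and 272 lower of all 17593 genes in that fit, not the shares of the main fit.

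The 24 leading genes were the 12 largest rises and 12 largest falls among genes called with and without irradiated array 2 whose groups did not overlap. The 12 that rose were Saa2, Saa1, Saa3, Slfn4, Timp1, Ifit3b, Ifit3, Pdpn, Cxadr, Sema3f, Marco and Dcn. Serum amyloid A genes, interferon-driven genes and genes of stromal or epithelial cells made up most of them. The 12 that fell were Dapl1, Vpreb3, H2-Eb2, Fcer2a, Fcmr, Fcrla, Srpk3, Chst3, Pla2g2d, Tnfrsf13c, Ccr6 and Dntt, several of them known B cell genes. With slide as a fixed block Saa1, Saa2, Saa3, Cxadr and Marco were not called. Within slide 4, on which that fit rests, all 24 leading genes kept their direction. The rises there ran from 3.5 to 6.72 and the falls from -4 to -6.05, with 1 irradiated array.

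**Figure D1:**
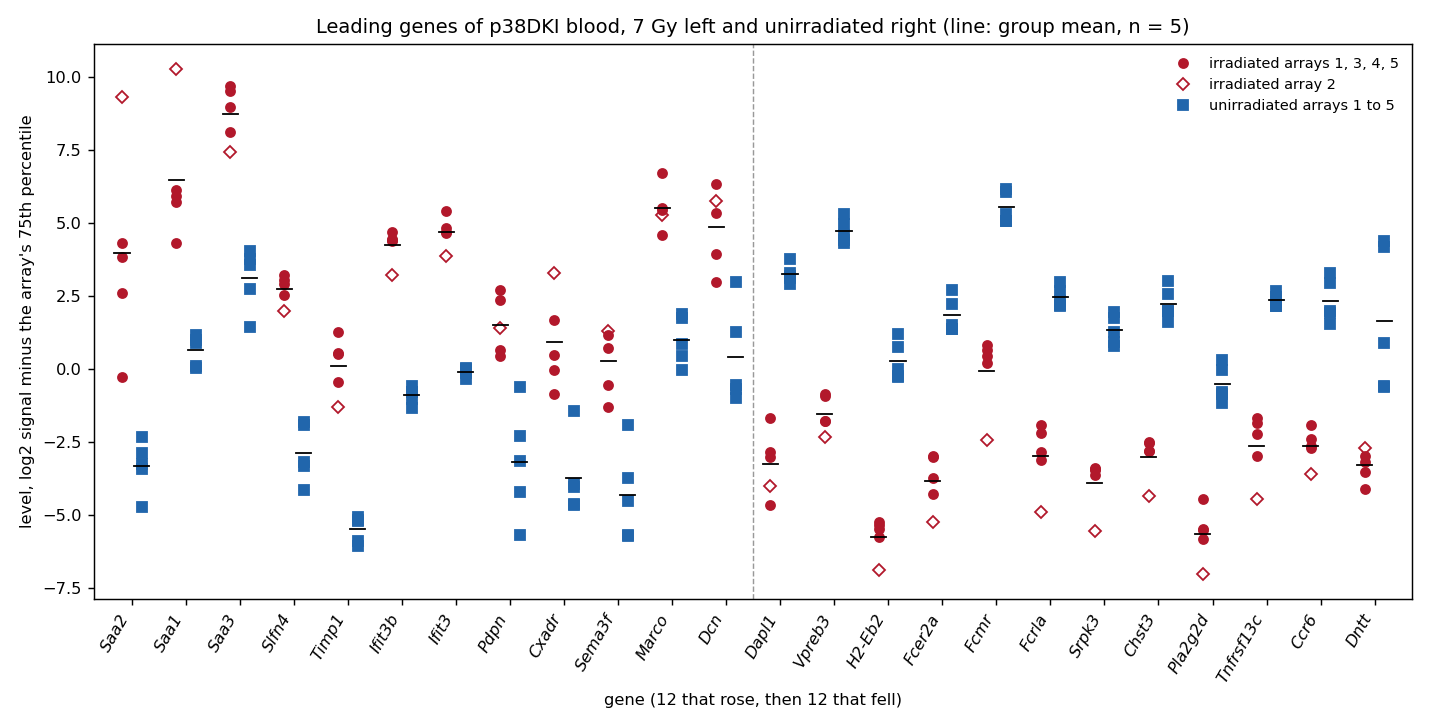
Level of the 24 leading genes on each p38DKI array (log2 signal relative to the array's 75th percentile), with irradiated arrays left of unirradiated ones and irradiated array 2 marked. The arrays of the 2 groups do not overlap for any gene shown, and irradiated array 2 lies highest of its group for Saa1 and Saa2 and lowest for most of the genes that fell.

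Genes that p53 turns on were higher in irradiated p38DKI blood, led by the arrest genes Cdkn1a and Phlda3. Of 15 tested p53 targets of cell cycle and growth arrest, 11 (73.3%, against 12.9% of all genes) rose and Sesn1 fell, with a median change of 1.47. Of 13 tested p53 targets of apoptosis 8 (61.5%) rose and none fell, with a median of 0.92. Of 11 tested targets of repair and feedback 3 rose and 3 fell. Blocking on slide left 5, 2 and 2 rises in the 3 lists and no member fell. Arrest genes had a median of 1.86 and apoptosis genes of 1.20 without irradiated array 2, which was the lowest irradiated array in each list.

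Cdkn1a encodes p21, an inhibitor of the cyclin-dependent kinases that drive cells into S phase. Its probe lies on chromosome 17 at 29237377 to 29237436 (mm9). Cdkn1a stood at 2.22, 1.37, 2.77, 2.60 and 3.10 on the irradiated arrays, against -1.37, -1.96, -2.33, -1.36 and -1.60 on the unirradiated ones. Every irradiated array was above every unirradiated array, and the lowest irradiated value was that of array 2. The change was 4.14 ± 0.42 (SE), adjusted p = 7.57e-08, and its 2 kept probes ran from 1.91 to 4.14. Phlda3, which restrains the kinase Akt at the membrane, averaged 4.94 ± 0.81 in irradiated blood and 1.66 ± 0.44 in unirradiated blood (change 3.28, adjusted p = 1.49e-09). Ccng1, encoding cyclin G1, averaged 2.06 ± 0.48 in irradiated blood and -0.22 ± 0.21 in unirradiated blood (change 2.28, adjusted p = 5.26e-08). Both genes were separated by group on all 10 arrays.

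Gdf15, a secreted stress cytokine, was not well above background on any unirradiated p38DKI array and was on all 5 irradiated ones. Its measured levels were -0.49, 1.84, 0.80, -0.42 and 0.56 in irradiated blood, against -3.55, -3.34, -4.05, -3.91 and -3.80 in unirradiated blood. It was at least 13.4-fold higher in irradiated blood (adjusted p = 2.73e-06). Such a bound sets the mean of the bright group against the lowest signal called well above background on each dim array, or the gene's own signal where that was higher. It belongs to the main processing and is not a minimum over the other settings run. Over those settings the log2 change of Gdf15 was as low as 1.35. For genes given bounds below, the smallest falls were -1.88 for Srpk3, -1.56 for H2-Eb2, -0.97 for Mcpt8 and -0.49 for Fcnb. Rps6ka5, also given a bound below, was not followed over those settings. Plk2 (2.95), Zmat3 (1.87), Gtse1 (1.60) and Psrc1 (1.47) also rose. The exception was Sesn1, a sestrin that is a known p53 target in other settings, which fell by 0.96 (adjusted p = 0.0117).

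Among the apoptosis genes, Tnfrsf10b, the mouse death receptor for TRAIL, averaged -0.18 ± 0.64 in irradiated blood and -2.16 ± 0.36 in unirradiated blood (change 1.99, adjusted p = 5.31e-06). Aen, an apoptosis-enhancing nuclease, averaged 3.77 ± 0.10 in irradiated blood and 1.81 ± 0.26 in unirradiated blood (change 1.96, adjusted p = 0.000602). Ei24 (1.56), Fas (0.84), Bbc3 (0.92) and Pmaip1 (0.82) rose as well, the last 2 encoding the BH3 proteins Puma and Noxa. Bax, which opens the mitochondrial membrane, was not called. Its levels were 5.05, 3.65, 5.28, 4.91 and 5.19 in irradiated blood, against 3.43, 3.56, 3.29, 3.45 and 3.40 in unirradiated blood. The groups did not overlap, the change was 1.39 and the adjusted p was 0.243 in the fit of 30 arrays, in which all groups share 1 spread. One irradiated p38WT array had Bax at -3.43 and not well above background, against 4.70 to 5.13 on the other irradiated p38WT arrays. In a limma fit of the 10 p38DKI arrays alone the adjusted p for Bax was 0.00823.

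Of the feedback and repair targets, Mdm2, the ubiquitin ligase that removes p53, averaged 4.21 ± 0.36 in irradiated blood and 2.92 ± 0.21 in unirradiated blood (change 1.29, adjusted p = 9.98e-07). Rps27l, a ribosomal protein gene that p53 turns on, rose by 1.85 (adjusted p = 9.94e-07). Polk, a translesion DNA polymerase, rose by 1.20 (adjusted p = 0.000407), although its kept probes ranged from -0.13 to 1.20. Ddb2, Fancc and Trp53 itself were the 3 members that fell.

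Genes known to be driven by interferon were mostly higher in irradiated p38DKI blood. Of 39 tested interferon-stimulated genes 29 rose and 2 fell, with a median of 1.36, and without irradiated array 2 the counts were 30 and 1. Blocking on slide left 12 that rose and none that fell. Many of these genes carry an interferon-stimulated response element in their promoter. A core pattern of this element (GAAA, any 2 bases, GAAA) was searched on both strands of the 250 bases before each RefSeq gene start (GRCm38.p6). It was present in 12 of the 27 list members with a promoter in the table (44.4%), in 9 of the 19 of these that rose (47.4%), and in 936 of 27025 genes of the table (3.46%). A match is a description of these letters and does not show that a factor binds. The 4 promoter windows below are printed because they belong to the gene with the smallest p of the list (Ifit3), its neighbour among the leading genes (Ifit3b), a further gene that rose (Oas1a) and the member that fell most (Rsad2). Oas1a and Rsad2 were picked after their values were seen. Each is written 5′ to 3′ on the strand of the gene and ends at the base before its start, with matches to the pattern or its reverse complement in capitals.
Ifit3, chr19:34583279-34583528, plus strand: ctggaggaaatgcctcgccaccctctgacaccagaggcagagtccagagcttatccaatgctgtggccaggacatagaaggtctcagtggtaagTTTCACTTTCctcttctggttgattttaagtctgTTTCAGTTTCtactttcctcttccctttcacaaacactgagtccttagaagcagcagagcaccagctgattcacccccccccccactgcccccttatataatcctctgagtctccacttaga
Ifit3b, chr19:34607707-34607956, plus strand: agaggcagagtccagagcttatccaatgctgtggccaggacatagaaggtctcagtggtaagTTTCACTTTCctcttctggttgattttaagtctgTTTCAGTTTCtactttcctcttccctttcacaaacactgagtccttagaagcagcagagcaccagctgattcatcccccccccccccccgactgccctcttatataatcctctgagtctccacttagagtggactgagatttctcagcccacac
Oas1a, chr5:120907526-120907775, minus strand: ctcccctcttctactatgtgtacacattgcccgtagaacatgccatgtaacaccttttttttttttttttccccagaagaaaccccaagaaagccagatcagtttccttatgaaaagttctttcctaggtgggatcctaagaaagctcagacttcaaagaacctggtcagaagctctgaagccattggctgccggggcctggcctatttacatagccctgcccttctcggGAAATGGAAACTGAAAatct
Rsad2, chr12:26456453-26456702, minus strand: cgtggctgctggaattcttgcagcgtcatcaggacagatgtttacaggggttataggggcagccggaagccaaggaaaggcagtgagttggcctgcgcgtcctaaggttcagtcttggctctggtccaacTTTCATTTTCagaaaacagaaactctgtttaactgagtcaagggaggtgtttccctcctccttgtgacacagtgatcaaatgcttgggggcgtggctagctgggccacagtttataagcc
Ifit3 and Ifit3b each held 2 matches, the nearest 122 and 154 bases before the start. Oas1a held 2 overlapping matches, the nearest 14 bases before the start, and Rsad2 held 1 match at 120 bases.

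Ifit3 and Ifit3b belong to a family of antiviral proteins that bind foreign RNA, and their probes lie close together on chromosome 19 (mm9 34663105 to 34663164 and 34687522 to 34687581). Ifit3 stood at 4.70, 3.89, 4.83, 5.42 and 4.66 on the irradiated arrays, against 0.01, -0.11, 0.06, -0.33 and -0.01 on the unirradiated ones. The gap between the groups was many times the spread within either (change 4.78 ± 0.31 SE, adjusted p = 1.88e-11). Ifit3b stood at 4.40, 3.22, 4.46, 4.69 and 4.44 on the irradiated arrays, against -0.79, -1.03, -0.77, -1.31 and -0.57 on the unirradiated ones (change 5.14, adjusted p = 5.15e-09). Its 2 kept probes ran from 3.05 to 5.14. The 2 genes are close relatives, and whether their probes share target RNA is not shown by the files. The related Ifit1 (2.08) and Ifit2 (1.70) also rose.

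Oas1a, an oligoadenylate synthetase that activates RNase L on sensing double-stranded RNA, stood at 5.23, 3.87, 6.08, 5.40 and 5.19 in irradiated blood, against 2.41, 2.11, 2.64, 2.37 and 2.50 in unirradiated blood (change 2.75 ± 0.29 SE, adjusted p = 9e-08). Oas2 (3.41) and Oasl1 (2.88) rose too, while Oas3 changed by -0.31 and was not called. Rtp4, an interferon-inducible chaperone, averaged 6.12 ± 0.65 in irradiated blood and 2.98 ± 0.21 in unirradiated blood (change 3.15, adjusted p = 4.99e-10). Ifih1, the cytosolic RNA sensor MDA5, averaged 1.87 ± 0.17 in irradiated blood and -0.45 ± 0.14 in unirradiated blood (change 2.32, adjusted p = 6.52e-11). The kinase gene Eif2ak2 (2.16), Usp18 (2.02), Mx1 (2.59) and the transcription factor gene Stat2 (1.12) rose in the same direction.

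The list was not uniform. Rsad2, encoding the antiviral enzyme viperin, stood at 5.15, 3.28, 4.81, 5.57 and 6.50 in irradiated blood, against 8.05, 7.17, 7.22, 7.14 and 7.47 in unirradiated blood. All 5 irradiated arrays were lower (change -2.35 ± 0.48 SE, adjusted p = 0.00058). Isg20, an exonuclease gene, fell by 0.88 (adjusted p = 0.027). Isg15, a ubiquitin-like modifier that is among the genes most used to report interferon activity, changed by -1.07 with an adjusted p of 0.0533, and Irf7 changed by -0.55 without being called. Thus members of a single response list lay at opposite ends, with Ifit3b at 5.14 and Rsad2 at -2.35.

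The Schlafen genes, a family clustered on mouse chromosome 11 and linked to control of leukocyte growth, moved with the interferon list. Of 8 tested members 4 rose and Slfn5 fell, with a median of 0.86, and without irradiated array 2 the counts were 6 and 0. With the slide block 2 rose. Slfn4 stood at 2.56, 2.0, 3.23, 3.07 and 2.91 on the irradiated arrays, against -4.12, -3.32, -1.81, -1.92 and -3.18 on the unirradiated ones, where it was well above background on only 2 arrays. Its probe lies on chromosome 11 at 83002974 to 83003033 (mm9), and this was the largest change of the family (5.62 ± 0.46 SE, adjusted p = 1.49e-09). Slfn3 rose by 2.75, Slfn1 by 1.53 and Slfn8 by 1.03, while Slfn9 at -0.04 and Slfn2 at 0.47 were not called.

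B lymphocyte genes fell steeply in p38DKI blood, and their 2 lists had the lowest medians of the 38 lists examined. Of 15 tested B cell receptor and co-receptor genes 13 (86.7%, against 20% of all genes) fell and none rose, with a median of -3.95. Of 19 tested genes of B cell signalling and transcription 17 fell and none rose, with a median of -3.44. Blocking on slide left 11 falls in each list, and without irradiated array 2 the counts were 13 and 16. Fcmr, which is in both lists, counts in each. Irradiated array 2 had the lowest level of every p38DKI array in both lists, and the medians without it were -3.49 and -3.01.

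Ms4a1, encoding the B cell surface protein CD20, stood at 0.77, -0.95, 1.90, 1.30 and 1.82 in irradiated blood, against 4.43, 5.34, 5.17, 4.82 and 4.85 in unirradiated blood. The groups were far apart (change -3.95 ± 0.43 SE, adjusted p = 1.98e-07). Cd79a, a signalling chain of the B cell receptor, averaged 1.10 ± 1.44 in irradiated blood and 5.81 ± 0.58 in unirradiated blood (change -4.71, adjusted p = 1.13e-07). Fcer2a, the low-affinity IgE receptor CD23, averaged -3.83 ± 0.94 in irradiated blood and 1.85 ± 0.61 in unirradiated blood (change -5.68, adjusted p = 1.21e-09). It was well above background on 2 of the 5 irradiated arrays.

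Vpreb3, a protein that associates with the B cell receptor chains during assembly, stood at -0.84, -2.32, -1.77, -1.77 and -0.91 in irradiated blood, against 4.31, 5.31, 4.98, 4.42 and 4.59 in unirradiated blood. This was the largest fall of both B cell lists (change -6.24 ± 0.39 SE, adjusted p = 1.21e-11). Tnfrsf13c, the receptor for the survival factor BAFF, fell by 4.99 (adjusted p = 2.54e-09), although its 2 kept probes ranged from -4.99 to -2.97. The IgM receptor gene Fcmr fell by 5.59 and Fcrla by 5.46. Srpk3, a splicing-factor kinase gene outside the lists, was at least 31.6-fold lower (adjusted p = 5.26e-08), and Ccr6, a chemokine receptor of B cells and some T cells, fell by 4.98. The members of the 2 lists not called were Fcgr2b (-0.25), Ly86 (-0.68), Syk (-0.32) and Ralgps2 (-0.25). Fcgr2b, Ly86 and Syk are also expressed by myeloid cells.

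MHC class II genes, by which B cells, dendritic cells and monocytes present peptides to T helper cells, fell as a whole list. All 11 tested members fell, with a median of -2.84, and with slide as a block 9 did. H2-Eb2 stood at -5.73, -6.87, -5.46, -5.34 and -5.23 in irradiated blood, where no array had it well above background, against -0.27, 0.75, 1.20, 0.00 and -0.24 in unirradiated blood. It was at least 16.8-fold lower (adjusted p = 6.52e-11). H2-Oa and H2-Ob, the chains of the B cell-rich regulator DO, fell by 4.66 and 4.58. The classical chains H2-Aa (-2.84), H2-Ab1 (-2.80) and H2-Eb1 (-2.79) fell by a smaller amount, and the master regulator Ciita fell by 1.04 (adjusted p = 0.0462).

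T lymphocyte genes fell less steeply and less evenly. Of 18 tested genes of the T cell receptor complex and co-receptors 13 fell and none rose, with a median of -1.21. Without irradiated array 2 the count was 9 and the median -0.70. The count was 8 with array median scaling, 3 with no scaling and 1 with slide as a block. Of all 17593 genes 1251 fell with array median scaling and 739 with no scaling. Of 12 tested genes of naive T cell homing and quiescence 10 fell and none rose, with a median of -1.92, and 3 fell with slide as a block. The receptor-complex count therefore rests in part on array 2 and on the scaling.

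Cd8b1 and Cd8a, the chains of the cytotoxic T cell co-receptor, fell most of the receptor list. Cd8b1 stood at -1.02, -3.72, -1.67, -1.03 and -0.78 in irradiated blood, against 2.24, 2.42, 2.20, 3.03 and 3.11 in unirradiated blood (change -4.24 ± 0.42 SE, adjusted p = 3.5e-08). Cd8a averaged -2.82 ± 1.58 in irradiated blood and 0.94 ± 0.53 in unirradiated blood (change -3.76, adjusted p = 6.7e-06). Cd4 averaged 3.15 ± 0.26 in irradiated blood and 3.77 ± 0.35 in unirradiated blood (change -0.62, adjusted p = 0.0113), and with no scaling its change was 0.0011 with an adjusted p of 0.999. Cd3e, a chain of the T cell receptor complex, stood at 4.50, 1.76, 4.22, 4.93 and 4.26 in irradiated blood, against 4.89, 5.55, 5.18, 5.10 and 5.36 in unirradiated blood. Its groups overlapped, and the change was -1.28 (adjusted p = 0.0118) with array 2 and -0.74 (adjusted p = 0.025) without it.

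In the naive T cell list, Dapl1 showed the largest fall of any leading gene. It stood at -2.82, -3.99, -3.01, -4.63 and -1.67 in irradiated blood, against 3.13, 3.79, 3.29, 3.21 and 2.91 in unirradiated blood (change -6.49 ± 0.39 SE, adjusted p = 7e-12). Ccr7, the receptor that brings naive lymphocytes into lymph nodes, averaged 1.77 ± 0.98 in irradiated blood and 5.76 ± 0.31 in unirradiated blood (change -3.99, adjusted p = 1.87e-09). The transcription factor genes Lef1 (-2.64) and Tcf7 (-2.67) fell, as did Il7r (-2.14), encoding the receptor for interleukin-7. Klf2 (-0.63), which other leukocytes also express, was not called. Dntt, the template-free DNA polymerase of immature lymphocytes, fell by 4.95 (adjusted p = 3.13e-05), but its unirradiated levels spread widely, at -0.58, 0.91, -0.62, 4.20 and 4.39.

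**Figure D2:**
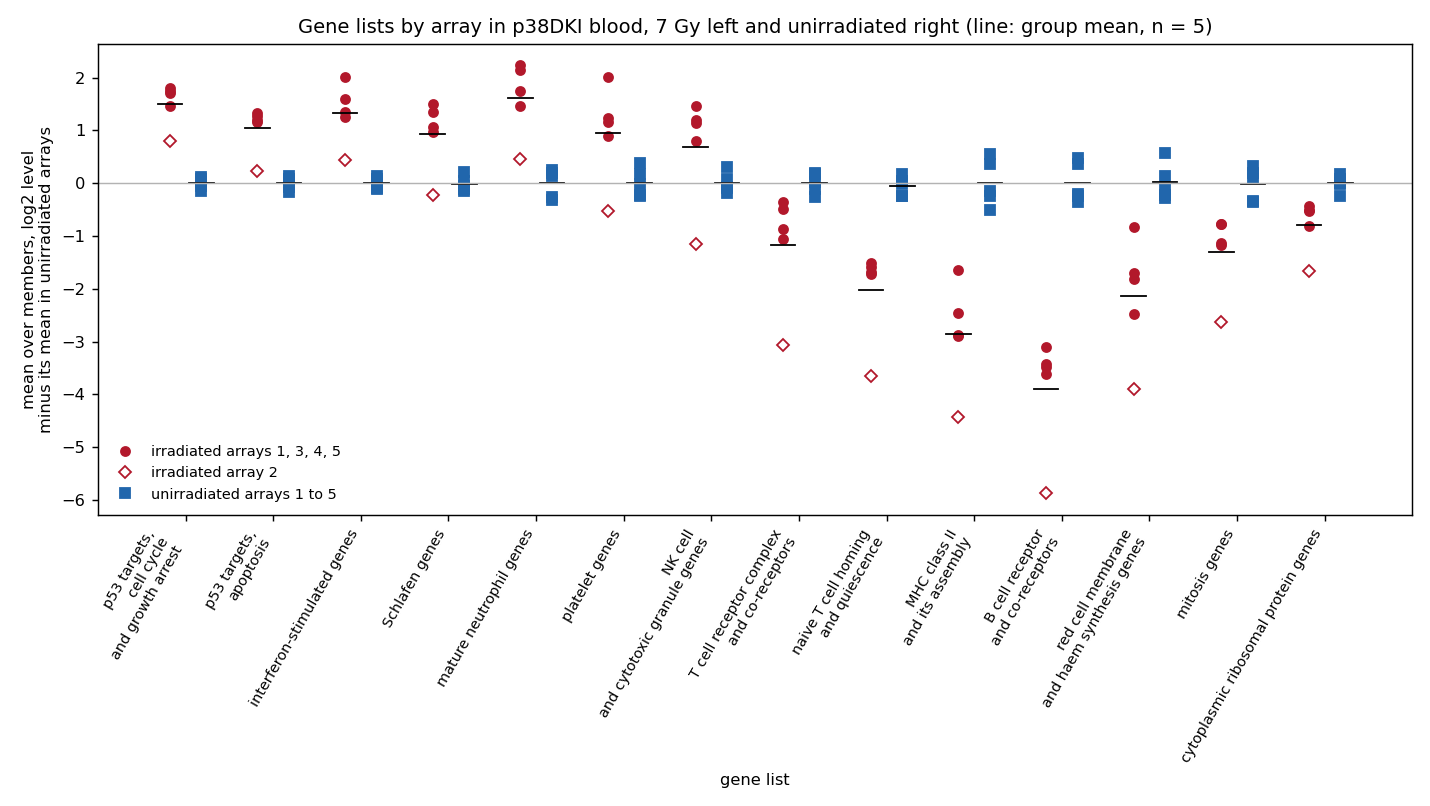
Median over the members of each gene list on each p38DKI array, irradiated arrays left of unirradiated ones. Each gene's level is taken relative to its mean on the unirradiated arrays (log2), and the values are medians although the axis reads mean. B cell and MHC class II lists lie far below 0 on all 5 irradiated arrays, the p53 arrest and apoptosis, interferon and mature neutrophil lists lie above 0 on all 5, and irradiated array 2 is the lowest irradiated array for most of the 14 lists shown.

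Natural killer and cytotoxic granule genes did not follow the other lymphocyte lists. With all arrays 4 of 19 rose (Fasl, Gzma, Gzmb and Klrb1c) and 2 fell (Gzmk and Gzmm). These are 21.1% and 10.5%, against 12.9% and 20% of all genes. Without irradiated array 2 the counts were 13 and 0 and the median was 1.18, against 0.66 with it, and with slide as a block 1 rose. Gzmb, the granule protease granzyme B, stood at 3.73, 1.41, 3.71, 4.22 and 3.90 in irradiated blood, against 2.29, 1.17, 1.88, 1.84 and 1.64 in unirradiated blood (change 1.63, adjusted p = 0.00449). Array 2 alone lay within the unirradiated range. Fasl, the ligand of the death receptor Fas, stood at 0.22 on array 2 and at 2.21 to 2.70 on the other irradiated arrays, against 0.27 to 0.82 in unirradiated blood, so array 2 was the lowest of all 10 arrays. Ncr1, the NK receptor NKp46, had an adjusted p of 0.103 with array 2 (change 0.89) and 0.00699 without it (change 1.34).

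Mature neutrophil genes were higher in irradiated p38DKI blood. Of 23 tested members 18 rose and none fell, with a median of 1.70, and 20 rose without irradiated array 2. In the fit with the slide block the median was 1.58 and 2 rose. Il1r2, the decoy receptor for interleukin-1, averaged 2.93 ± 0.59 in irradiated blood and 0.18 ± 0.15 in unirradiated blood (change 2.74, adjusted p = 4.62e-06). Fpr1, which senses bacterial formyl peptides, stood at 3.48, 2.36, 3.56, 3.50 and 3.61 in irradiated blood, against 0.83, 1.49, 1.23, 0.79 and 1.17 in unirradiated blood (change 2.20, adjusted p = 1.91e-05). S100a8, a chain of calprotectin, averaged 7.58 ± 0.69 in irradiated blood and 5.98 ± 0.49 in unirradiated blood (change 1.60, adjusted p = 0.00574). Csf3r (0.16), the receptor for G-CSF, was not called.

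Granule genes made early in neutrophil development did not move together. Of 9 tested members 2 rose and 2 fell, and none was called with the slide block. Lcn2, encoding the iron-binding lipocalin 2 that liver also makes, averaged 4.66 ± 1.31 in irradiated blood and 1.88 ± 0.61 in unirradiated blood (change 2.78, adjusted p = 0.000179). Camp, the precursor of an antimicrobial peptide, fell by 1.44 (adjusted p = 0.00384), and Fcnb was at least 1.91-fold lower (adjusted p = 0.00264). That bound belongs to the main processing. Fcnb was not called with array median scaling, no scaling, quantile normalization or normexp, and its smallest fall was -0.49. Elane, neutrophil elastase, changed by -0.72 and was not called.

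Monocyte and macrophage genes moved in both directions. Of 21 tested members 7 rose and 6 fell, with a median of 0.40. Marco, a scavenger receptor of tissue macrophages, averaged 5.52 ± 0.78 in irradiated blood and 0.99 ± 0.82 in unirradiated blood (change 4.53, adjusted p = 9.52e-05). The macrophage genes Mrc1 (2.70), C1qc (2.0) and Adgre1 (1.92) rose too, as did Cd14 (2.01), which monocytes also express. Cx3cr1, a chemokine receptor high in patrolling monocytes, averaged 0.30 ± 1.12 in irradiated blood and 2.58 ± 0.66 in unirradiated blood (change -2.28, adjusted p = 0.000633). Ace (-1.58), Treml4 (-1.26), Ear2 (-1.56) and Nr4a1 (-1.68), also known from patrolling monocytes, fell, and so did Pparg (-0.58), a transcription factor gene of tissue macrophages. Csf1r, the growth factor receptor common to the lineage, changed by -0.05 and was not called. With slide as a block 1 member rose and none fell.

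Of 12 tested dendritic cell genes 2 rose (16.7%, against 12.9% of all genes) and 5 fell (41.7%, against 20%). Flt3, the growth factor receptor of dendritic cell precursors, averaged -2.92 ± 0.65 in irradiated blood and -0.80 ± 0.24 in unirradiated blood (change -2.13, adjusted p = 1.16e-05). Irf8 fell by 1.89 and Tcf4 by 0.98, 2 transcription factors of dendritic cells that B cells also express. None of the 12 was called in the fit with the slide block. Of 11 tested basophil, mast cell and eosinophil genes none rose and 5 fell, and 1 fell with slide as a block. Mcpt8, a basophil protease, was well above background on all 5 unirradiated arrays and on no irradiated one, and was at least 6.49-fold lower (adjusted p = 7.77e-09). Il5ra, the interleukin-5 receptor of eosinophils and basophils, fell by 1.98 (adjusted p = 0.000131). The median of this list was -0.27 and became 0.15 with array median scaling and 0.36 with no scaling, so the named members and not the list carry the fall.

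Red cell genes were lower in irradiated p38DKI blood. Of 25 tested genes of the red cell membrane and haem synthesis 20 (80%) fell and Aqp1 rose, with a median of -2.23, and 18 fell without irradiated array 2. In the fit with the slide block the median was -1.58 and 3 fell. Slc4a1, the anion exchanger band 3, stood at 3.34, 1.46, 3.0, 4.14 and 5.74 in irradiated blood, against 8.03, 7.10, 7.22, 6.88 and 7.33 in unirradiated blood. The irradiated arrays were all lower and also more widely spread (change -3.78 ± 0.48 SE, adjusted p = 1.72e-06). The membrane skeleton genes Ank1 (-4.23) and Epb42 (-3.45) fell alongside.

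The haem synthesis genes named here changed by less than those membrane genes. Alas2, the erythroid enzyme that starts the pathway, averaged 11.09 ± 0.91 in irradiated blood and 12.06 ± 0.41 in unirradiated blood. Its change was -0.97 (adjusted p = 0.0241) with array 2 and -0.60 (adjusted p = 0.0986) without it. Fech, the enzyme that inserts the iron, fell by 1.87 and Urod by 1.44, while Cpox at 0.09 was not called. Among 11 tested erythroid transcription factor and receptor genes 4 rose and 4 fell, and 2 rose and 1 fell with the slide block. E2f2 fell by 2.51 and Lmo2 by 2.34, and the median of -0.28 became 0.14 with array median scaling. Bcl11a, in this list and in the B cell list, fell by 4.81, and its 3 kept probes ran from -4.81 to -1.64.

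Platelet genes were higher. Of 24 tested members 13 rose and none fell, with a median of 1.01, and without irradiated array 2 the count was 22 and the median 1.35. Of the 24, 8 rose with the slide block. F5, coagulation factor V, stood at 5.12, 4.24, 4.87, 4.77 and 4.36 in irradiated blood, against 3.03, 2.59, 2.85, 2.70 and 2.99 in unirradiated blood (change 1.84, adjusted p = 6.55e-06). Thbs1, thrombospondin 1, averaged 5.43 ± 0.84 in irradiated blood and 3.67 ± 0.27 in unirradiated blood (change 1.76, adjusted p = 0.000435). The fibrinogen receptor chain Itga2b (1.13) and the ADP receptor P2ry12 (1.33) also rose. Pf4, platelet factor 4, had a change of 0.39 (adjusted p = 0.277) with array 2 and 0.69 (adjusted p = 0.0312) without it.

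**Figure D3:**
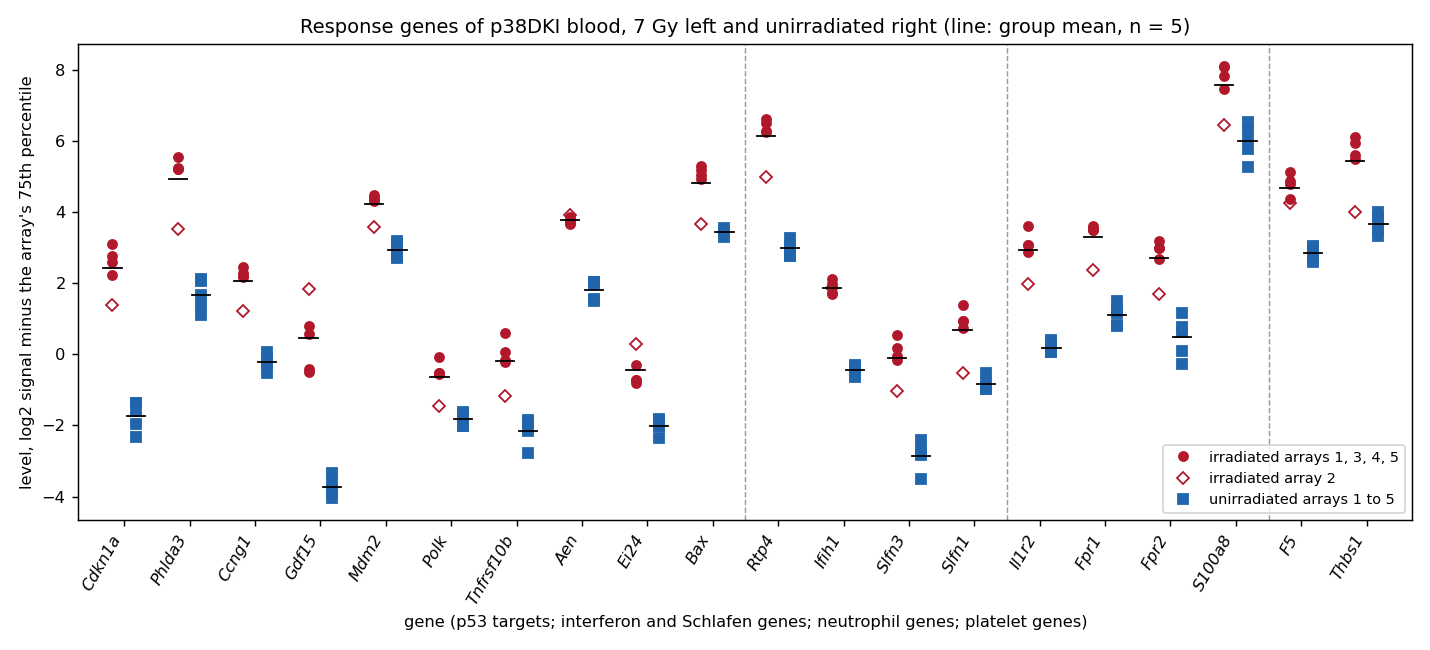
Level of 20 p53-target, interferon, Schlafen, neutrophil and platelet genes on each p38DKI array (log2 signal relative to the array's 75th percentile), irradiated arrays left of unirradiated ones, with a line at each group mean (n = 5). Irradiated and unirradiated arrays overlap for S100a8 and Thbs1, each time through irradiated array 2, and for no other gene shown.

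Genes of dividing cells were lower. Of 16 tested mitosis genes 9 fell and none rose, with a median of -1.23. Nusap1, a spindle protein gene, averaged 2.47 ± 0.94 in irradiated blood and 5.85 ± 0.45 in unirradiated blood (change -3.37, adjusted p = 2.25e-07). Ccna2, encoding cyclin A2, fell by 2.21 (adjusted p = 0.000249), and Ube2c, which tags mitotic proteins for destruction, fell by 2.20 (adjusted p = 0.000128). Mki67, a common proliferation marker, changed by 0.33 and was not called. Of 21 tested DNA replication genes 11 fell and none rose, with a median of -0.77, led by the licensing factor gene Cdt1 (-1.75) and the helicase gene Mcm7 (-1.06). The slide block left 1 fall in each list.

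DNA repair genes shifted by less. Of 19 tested members 12 fell and none rose, with a median of -0.69, and 2 fell with slide as a block. The count was 1 with array median scaling and 1 with no scaling, where 1251 and 739 of all 17593 genes fell. Parp1, which marks broken DNA with poly(ADP-ribose), averaged -1.29 ± 0.47 in irradiated blood and 0.79 ± 0.47 in unirradiated blood (change -2.08, adjusted p = 1.31e-06). Msh6, a mismatch repair gene, fell by 0.84 (adjusted p = 0.000399).

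Of 74 tested cytoplasmic ribosomal protein genes 56 fell and none rose, with a median of -0.78, against -0.23 for all genes. Without irradiated array 2 the count was 43 and the median -0.57. The count depended on the scaling, since 17 fell with array median scaling and none with no scaling or with slide as a block. Of all 17593 genes 1251 fell with array median scaling and 739 with no scaling. Rpl32 averaged 8.09 ± 0.47 in irradiated blood and 9.17 ± 0.11 in unirradiated blood (change -1.08, adjusted p = 7.65e-05). Of 45 tested oxidative phosphorylation genes 5 rose and 4 fell, with a median of 0.23 that became -0.04 without array 2, and 2 rose with slide as a block. With all arrays the rises made up 11.1% of that list and the falls 8.89%, below the 12.9% and 20% of all genes. Atp5b, a subunit gene of ATP synthase, fell by 0.89 (adjusted p = 0.00239).

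Serum amyloid A genes, which encode acute phase proteins made mainly by liver and, for Saa3, also by macrophages and other tissues, were the 3 largest rises among the leading genes with all arrays. Without irradiated array 2 the change of Saa1 was below those of Timp1 (5.94), Slfn4 (5.81), Ifit3b (5.39) and Ifit3 (4.98). Saa1 stood at 4.33, 10.27, 5.92, 5.73 and 6.15 in irradiated blood, against 1.19, 0.11, 0.06, 0.89 and 1.01 in unirradiated blood (change 5.83 ± 0.86 SE, adjusted p = 1.44e-05). Saa2 stood at 2.61, 9.31, -0.26, 3.85 and 4.32 in irradiated blood, against -2.31, -3.23, -4.70, -2.88 and -3.41 in unirradiated blood, where 2 arrays had it well above background (change 7.27 ± 1.64 SE, adjusted p = 0.00147). The liver-rich array 2 was far above the rest for both genes. Without it the changes were 4.88 (adjusted p = 2.51e-05) and 5.94 (adjusted p = 0.00572). Saa3 stood at 8.12, 7.45, 9.52, 8.97 and 9.71 in irradiated blood, against 3.57, 1.44, 2.76, 4.05 and 3.79 in unirradiated blood. Array 2 was the lowest irradiated array for Saa3, and the change was 5.63 with it and 5.96 without it.

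Saa1, Saa2 and Saa3 lie in a cluster on chromosome 7, with probes at 53996070 to 53996129, 54009622 to 54009681 and 53970389 to 53970448 (mm9). Of 15 tested acute phase genes 5 rose (Hp, Lcn2 and the 3 Saa genes) and none fell. With slide as a block none of the 15 was called. Hp, haptoglobin, stood at 6.75, 10.51, 6.95, 6.80 and 7.34 in irradiated blood, against 5.0, 5.38, 5.48, 4.34 and 5.03 in unirradiated blood (change 2.63, adjusted p = 0.00507). The other 10 acute phase genes, among them the fibrinogen chains, Hpx and Orm1, had no call. The list median was 3.47 with array 2 and 1.63 without it.

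Hepatocyte genes varied between arrays in both groups. Alb, encoding albumin, stood at 1.92, 10.32, -1.73, 2.28 and 3.31 in irradiated blood, against 5.44, -2.38, -2.30, 0.81 and -0.22 in unirradiated blood. The groups overlapped, with the change at 2.95 and the adjusted p at 0.221. Apoa1, an apolipoprotein of liver and gut, ranged from -4.98 to 6.86 in irradiated blood and from -5.11 to 1.19 in unirradiated blood (change 2.11, adjusted p = 0.33). Of 30 tested hepatocyte genes only Arg1 was called (4.28, adjusted p = 0.0272), and without array 2 or with the slide block none was. The level of these transcripts on each array is given here beside the acute phase genes. In a fit with that level as a covariate, Saa1, Saa2, Saa3 and Lcn2 stayed called. Arg1, itself 1 of the hepatocyte genes, did not. The cause of the change in acute phase genes was not tested.

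Genes of fibroblasts and other stromal cells were higher in irradiated p38DKI blood. Of 14 tested members 11 (78.6%) rose and Thy1, also a T cell gene, fell, with a median of 3.18, and 8 rose with slide as a block. Their mean level over 18 genes was 0.43, 0.43, -0.97, 0.88 and -0.33 in irradiated blood, against -1.40, -1.80, -2.84, -2.62 and -1.99 in unirradiated blood. Timp1, an inhibitor of matrix proteases, was at least 10.6-fold higher (adjusted p = 4.54e-05) and was well above background on no unirradiated array. That bound belongs to the main processing. Over the other settings run the log2 change of Timp1 was as low as 1.19. It was not called in the limma fit with normexp background correction (adjusted p = 0.0521). Dcn, the matrix proteoglycan decorin, stood at 5.35, 5.76, 3.0, 6.35 and 3.96 in irradiated blood, against 2.98, 1.27, -0.98, -0.53 and -0.69 in unirradiated blood (change 4.47, adjusted p = 0.000827). Irradiated array 3 was the lowest irradiated array and unirradiated array 1 the highest unirradiated one for Dcn. The collagen genes Col1a1 (2.67), Col1a2 (3.38) and Col3a1 (3.78) rose as well, and Vim at 0.08 was not called.

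Of 11 tested epithelial and mesothelial genes 7 rose and none fell, with a median of 2.47, and 4 rose with slide as a block. Cxadr, a junction protein, stood at 0.50, 3.31, -0.86, 1.69 and -0.01 in irradiated blood, against -1.44, -4.03, -3.94, -4.65 and -4.62 in unirradiated blood (change 4.66, adjusted p = 0.000303). It was well above background on 1 of the 5 unirradiated arrays. Wt1, a transcription factor of the mesothelium, rose by 4.46 (adjusted p = 0.0017) and Msln, mesothelin, by 3.26 (adjusted p = 0.00449). The keratin genes Krt8 (3.32) and Krt19 (2.47) rose, while Epcam (-1.04), Cdh1 (-0.76) and Cldn4 (-0.66) were not called. Pdpn, made by mesothelial, lymphatic and stromal cells, rose by 4.71 and Sema3f, a secreted guidance factor, by 4.58. Wt1 and Sema3f were well above background on 1 unirradiated array each and Pdpn on 2, so the sizes of these changes are uncertain. With normexp background correction the change was 1.82 for Cxadr, 1.16 for Wt1, 2.01 for Pdpn and 1.21 for Sema3f. Of 7 tested endothelial genes 2 rose, 1 of 7 with slide as a block, and of 12 tested heart muscle genes none was called in either fit.

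**Figure D4:**
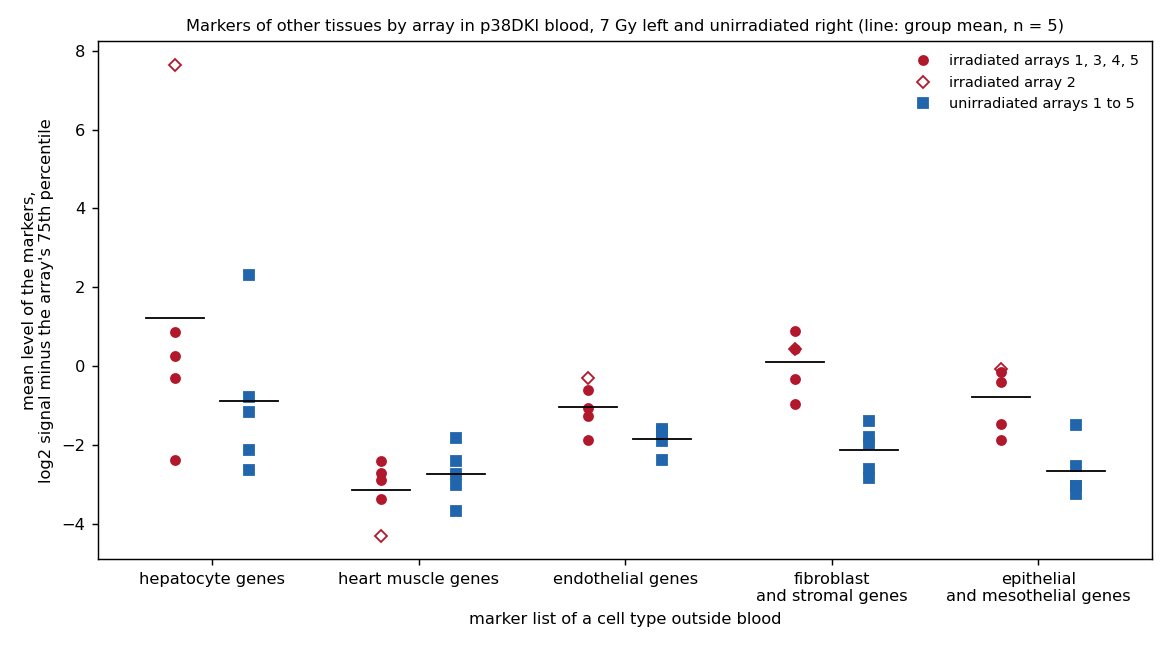
Mean level of hepatocyte, stromal, epithelial and mesothelial, endothelial and heart muscle marker genes on each p38DKI array (log2 signal relative to the array's 75th percentile), irradiated arrays left of unirradiated ones. Hepatocyte genes average 7.64 on irradiated array 2, stromal genes are higher on all 5 irradiated arrays (-0.97 to 0.88) than on the unirradiated ones (-2.84 to -1.40), and heart muscle genes overlap.

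Of 9 tested haematopoietic progenitor genes 4 rose and 1 fell, and 2 rose and 1 fell with slide as a block. Cd34, which marks progenitors and also endothelium and stroma, averaged 2.93 ± 1.12 in irradiated blood and -0.41 ± 0.90 in unirradiated blood (change 3.35, adjusted p = 0.00016), although its kept probes ranged from -0.22 to 3.35. Myb, a transcription factor of progenitors, fell by 3.05 (adjusted p = 0.000152). Its unirradiated levels were 0.15, 1.07, 0.63, 2.98 and 3.24, so unirradiated arrays 4 and 5 were the high ones, as for Dntt.

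Stress-response lists showed no shared direction across their members. Of 17 tested NRF2 response genes 4 rose and 3 fell, and 1 rose with the slide block. With all arrays the rises made up 23.5% of that list and the falls 17.6%, against 12.9% and 20% of all genes. Txn1, thioredoxin, rose by 1.33 (adjusted p = 1.95e-05) and Gclm, a subunit of the enzyme that starts glutathione synthesis, fell by 1.52 (adjusted p = 0.000155). Of 14 tested heat shock genes 4 rose and Dnajb1 fell, and 1 rose with the slide block. Hspb1, the small heat shock protein Hsp27 whose kinase lies downstream of p38, stood at 3.89, 4.18, 3.01, 5.10 and 3.38 in irradiated blood, against 1.59, -0.18, -1.53, 0.18 and -0.35 in unirradiated blood (change 3.97 ± 0.59 SE, adjusted p = 1.54e-05). Its irradiated levels were high on the same 2 arrays, 2 and 4, as those of Dcn.

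Glucocorticoid-responsive genes and clock genes gave more rises than falls. Of 13 tested glucocorticoid-responsive genes 7 rose and none fell, with a median of 1.23. Zbtb16, a transcription factor gene, averaged 1.52 ± 0.69 in irradiated blood and 0.08 ± 0.17 in unirradiated blood (change 1.44, adjusted p = 0.000175), and Klf9 rose by 2.0 (adjusted p = 0.0014). Of 13 tested clock genes 5 rose (38.5%, against 12.9% of all genes) and Arntl fell (7.69%, against 20%). Dbp, a transcription factor under clock control, stood at 3.03, 5.90, 3.12, 3.32 and 3.33 in irradiated blood, against 1.73, 1.93, 2.02, 1.42 and 1.45 in unirradiated blood (change 2.03, adjusted p = 0.000175). Array 2 was the highest irradiated array for Dbp, Klf9 and Zbtb16. The slide block left 1 call among the glucocorticoid-responsive genes and none among the clock genes, and the labels used here give no time of day for the blood draws.

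Of 15 tested immediate early genes 2 rose (13.3%) and 3 fell (20%), shares near the 12.9% and 20% of all genes. Jund, an AP-1 subunit gene, fell by 1.98 (adjusted p = 8.6e-05), Myc fell by 1.06 (adjusted p = 0.00564), and Fosl2 rose by 1.38 (adjusted p = 0.00114), although its 2 kept probes ran from -0.56 to 1.38. Of 19 tested cytokine and NF-kB genes 4 rose (21.1%, against 12.9% of all genes) and 5 fell (26.3%, against 20%). No member of either list was called with slide as a block. The genes that fell included Nfkb2 (-1.11), Relb (-1.08) and the B cell co-stimulator Cd40 (-1.86). Il1b (1.44), also in the neutrophil list, was among those that rose.

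The p38 pathway itself changed in a few members. Of 27 tested kinases, activators, phosphatases and effectors 4 rose and 4 fell, with a median of 0.14, and 1 rose and 1 fell with slide as a block. The 8 called members are a share near the 32.9% of all genes. Mapk14, encoding p38 alpha, the main p38 kinase of blood cells, stood at 4.61, 3.60, 4.42, 3.86 and 4.07 in irradiated blood, against 3.10, 3.15, 3.45, 3.45 and 3.40 in unirradiated blood. The change was 0.80 ± 0.23 (SE), adjusted p = 0.00866, but its kept probes ran from -0.32 to 0.80. Mapk11, encoding p38 beta, stood at 0.72, -0.30, 0.40, 0.55 and 0.29 in irradiated blood, against 1.51, 1.79, 2.07, 1.79 and 1.26 in unirradiated blood (change -1.35 ± 0.27 SE, adjusted p = 0.000498). Both kinase genes were separated by group on all 10 arrays. Neither was called with slide as a block, at adjusted p of 0.137 for Mapk14 and 0.306 for Mapk11. Mapk14 was also not called with normexp (0.142) or with the mean of its probes (0.311), and Mapk11 with no scaling (0.16). These are transcript levels, and kinase activity was not measured.

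Among the regulators, Mknk2, a kinase that p38 and ERK activate, averaged 5.10 ± 0.26 in irradiated blood and 6.30 ± 0.15 in unirradiated blood (change -1.20, adjusted p = 1.4e-05). Gadd45a, a damage-inducible p53 target that can activate the kinases above p38, averaged 2.27 ± 0.76 in irradiated blood and 4.02 ± 0.60 in unirradiated blood. It fell by 1.75 (adjusted p = 0.000688), opposite to most of the p53 targets described above. Rps6ka5, the nuclear kinase MSK1, was at least 2.78-fold lower. Dusp16, a phosphatase of p38 and JNK, rose by 1.10, and Map3k7 (0.34) and Atf2 (0.44) rose slightly.

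The same contrast in p38WT blood gave values to set beside those of p38DKI blood. In p38WT blood 5016 genes (28.5%) were called, 2774 (15.8%) higher and 2242 (12.7%) lower. The difference between the p38DKI and p38WT changes, tested in the same limma fit, was called for 1 gene (0.00568%), and 2394 genes (13.6%) had an unadjusted p under 0.05. No member of any list was called for that difference. Ifit3 changed by 4.78 in p38DKI and 5.45 in p38WT blood, Cdkn1a by 4.14 and 3.50, Ms4a1 by -3.95 and -4.21, and Dapl1 by -6.49 and -5.49. These are near values, but the missing call does not show that the genotypes respond alike.

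The gene called was Olfr1402, an olfactory receptor gene whose probe lies on chromosome 3 at 97214221 to 97214280 (mm9). In p38DKI blood it stood at -2.50, -3.58, -3.40, -2.89 and -2.77 on irradiated arrays, against -1.57, -1.29, -2.04, -1.92 and -1.57 on unirradiated ones (change -1.35, adjusted p = 0.000118), while its change in p38WT blood was 0.65. The difference was -2.0 with an adjusted p of 0.0368, and over the alternatives run the adjusted p ranged from 0.00728 to 1.

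Some lists gave different counts in the 2 genotypes. In p38DKI blood 11 of 14 stromal genes rose with a median of 3.18, and in p38WT blood 2 rose with a median of 0.96. On unirradiated p38WT array 5 Timp1 stood at 1.09, against -5.70 to -4.50 on the other unirradiated p38WT arrays. Fap on that array was -4.21, within the range of the others. Dcn on irradiated p38WT array 4 was -1.34, against 3.01 to 4.63 on the other irradiated p38WT arrays. The part of single p38WT arrays in these counts was not tested. Epithelial and mesothelial genes gave 7 rises and a median of 2.47 in p38DKI blood, against 2 and 1.39 in p38WT blood. Wt1 on irradiated p38WT array 4 was -5.18, against -2.93 to 0.48 on the other irradiated p38WT arrays. The T cell receptor list gave 13 falls in p38DKI blood and 4 in p38WT blood. Without irradiated array 2 the p38DKI count was 9 and the median -0.70, against a median of -0.51 in p38WT blood. Of all genes 20% fell in p38DKI blood, 16.1% without array 2, and 12.7% in p38WT blood. Hspb1 changed by 3.97 in p38DKI and by 0.80 in p38WT blood, a difference of 3.17 with an unadjusted p of 0.00074 and an adjusted p of 0.14. Unirradiated p38WT array 5 had Hspb1 at 3.10, against 0.55 to 2.01 on the other unirradiated p38WT arrays. Saa3 changed by 5.63 in p38DKI blood and by 2.55 (adjusted p = 0.0579) in p38WT blood. On irradiated p38WT array 3 Saa3 stood at 1.37, against 5.67 to 8.98 on the other irradiated p38WT arrays. That array, which also had Bax at -3.43, had 39.71% of probes well above background. The other p38WT arrays had 51.13% to 62.56%. The part of irradiated p38WT array 3 in the p38WT changes was not tested. None of the differences between genotypes given here was called.

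**Figure D5:**
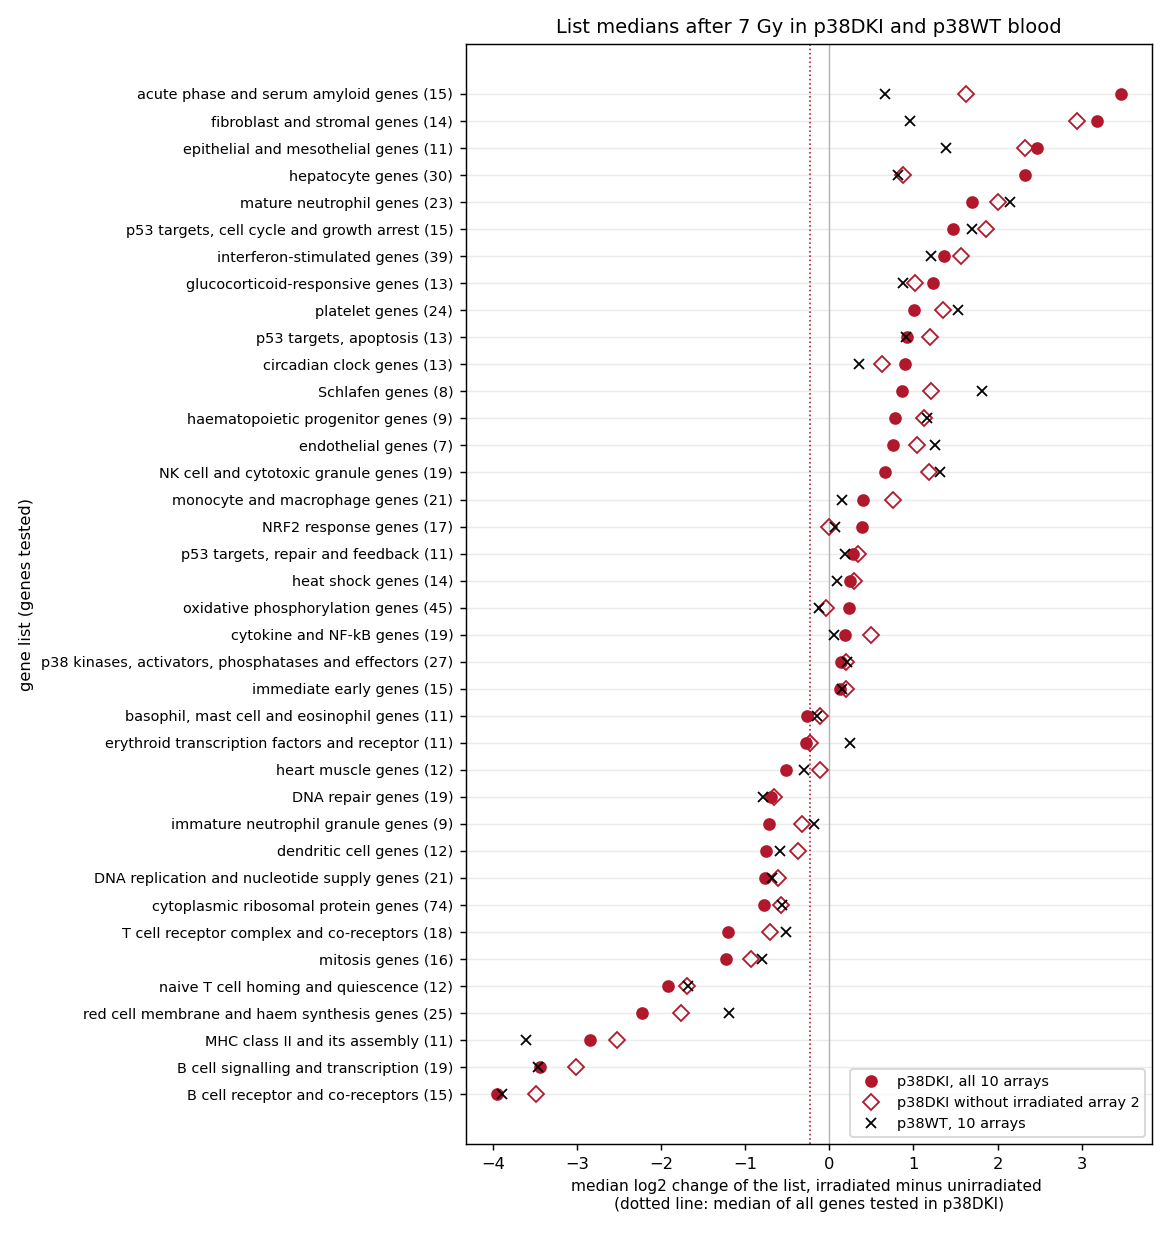
Median log2 change (irradiated minus unirradiated) of each gene list in p38DKI blood with all arrays, in p38DKI blood without irradiated array 2, and in p38WT blood. The medians of both B cell lists lie between -3.95 and -3.01 in all 3, and the stromal median is 3.18 in p38DKI and 0.96 in p38WT blood.

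Leaving out irradiated array 2 changed which genes were called. The 5 largest rises called only with it were Arg1, Gsta3, Cp, Car3 and Echdc2, most of them known liver genes, with changes of 3.61 to 4.28. Gsta3, a glutathione transferase, stood at 2.40, 8.58, 1.03, 2.98 and 1.90 in irradiated blood, against 2.84, -1.33, -2.63, -1.26 and -2.01 in unirradiated blood. The 5 largest falls called only with it were Mc3r, Olfr1466, Brs3, Gzmk and C130036L24Rik. The 5 largest falls called only without it were Scd1, Chchd10, Cnn3, Pcx and Haao. Scd1, a fatty acid desaturase abundant in liver, stood at -1.39, 4.62, -2.18, -0.98 and -1.17 in irradiated blood, against 1.66, 1.62, 2.22, 1.48 and 1.31 in unirradiated blood. All other irradiated arrays were below all unirradiated ones, and the change was -1.88 (adjusted p = 0.0746) with array 2 and -3.09 (adjusted p = 6.83e-05) without it. The 5 largest rises called only without it were Lgals2, Tgfb2, Alox15, C1qa and Ednrb, with changes of 1.88 to 2.57. Of the genes called higher with all arrays, 66.9% lay above every unirradiated array on array 2, against 92.8% to 96.1% on the other irradiated arrays.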

How the data were processed

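Cy3-labelled cRNA from each blood sample was hybridised to a 1-colour Agilent array, 1 array per sample. The deposited scanner files, made with Agilent Feature Extraction 12.0.2 per the submitters' processing notes, give background-corrected probe intensity on a linear scale. The authors' deposited value table holds log2 values, which differed from the log2 scanner signal by a single number on each array (tolerance 0.01), and it was used as an alternative only. Its genome build and any other step are not given in the sources used here.

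Here log2 of the processed signal was taken and each array's 75th percentile subtracted. Control spots and outlier-flagged spots were left out, and spots of a probe were averaged, which gave 39429 probes. Probes were named through RefSeq accessions (29056), symbols (3150) or synonyms (116), and 7107 kept the array design's name. Probe positions are those of the scanner files (mm9). Probes well above background on at least 4 of 5 arrays of a p38DKI group were kept (22091), and the brightest kept probe stood for its gene. Of 17593 genes, 14294 had a RefSeq symbol and 27 lacked a value on some p38DKI array, where the fit used the arrays that had one.

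Group means of 6 groups (5 arrays each) were fitted with limma 3.58.1 in R 4.3.3 (lmFit, eBayes, 24 residual degrees of freedom), two-sided, with Benjamini-Hochberg adjustment over all 17593 genes. The contrasts were irradiated minus unirradiated p38DKI, and that change minus the one in p38WT. The fit was tested on simulated data. The number of arrays limits the precision. Deviations of same-numbered p38DKI samples correlated at -0.219 to 0.412. For replicates 3 and 5 that correlation (0.412 and 0.243) was above the best with another number (0.186 and 0.174), and for replicates 1, 2 and 4 it was below. These few values cannot settle whether the samples were paired, and no block was used in the main result.

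Members and gene lists were chosen with earlier results of these data known. Lists are described by counts and medians, without a list test. Named genes are the 12 largest rises and falls that passed with and without irradiated array 2 and did not overlap, the 3 members of each list with the smallest p, a set of standard markers, and the genes called only with or only without that array. Other list members were named after their values were seen, and some members are counted in their lists but not reported here. Alternatives were other scalings, normexp, other filters, other fits, slide as a block, left-out arrays and a hepatocyte covariate.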

Additional observations from a re-analysis of the deposited data

Results flagged for a closer look

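Of 318 groups of 5 p38DKI arrays examined, 49 held an array whose gap to the nearest other array exceeded Dixon's 95% limit. Chance flags about 1 group in 20. Some genes examined had been chosen because their call depended on irradiated array 2. Gsta3, Cp, Scd1, Chchd10, Cnn3, Pcx and Haao are such genes, so the count for that array is partly set by the choice. Irradiated array 2 accounted for 37 of them, unirradiated array 1 for 6, unirradiated array 3 for 4, and irradiated array 4 and unirradiated array 5 for 1 each. Levels are log2 signals relative to the array's 75th percentile.

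On irradiated array 2, these genes lay far above the other irradiated arrays: Gsta3 at 8.58, Cp at 6.56, Trf at 10.13, Scd1 at 4.62, Chchd10 at 8.35, Cnn3 at 3.75, Pcx at 6.64 and Haao at 6.59. Of them only Trf is in the hepatocyte list. Klf9 at 2.24, Dbp at 5.90 and Parp1 at -0.46 were also high there. B cell and MHC class II genes were lower than on the other irradiated arrays, with Fcmr at -2.42, H2-Oa at -2.87 and H2-Ob at -2.66. So were Srpk3 at -5.52 and Chst3 at -4.35, which are outside those lists. T cell and NK genes were also low, with Cd5 at -0.59, Lef1 at -0.21, Cd3e at 1.76, Fasl at 0.22, Gzmb at 1.41 and Ncr1 at -1.51. Among response genes Ifit3b stood at 3.22, Rtp4 at 4.99, Phlda3 at 3.51, Ccng1 at 1.22, Mdm2 at 3.58 and Bax at 3.65, each below the other irradiated arrays. Other low values were Fpr1 at 2.36, Cx3cr1 at -1.69, Flt3 at -4.05, Irf8 at 0.94, Il5ra at -3.00, Cdt1 at -1.14, Cox6a2 at -4.88, Myb at -2.98 and Relb at -0.58. The part of hepatocyte RNA in these values was not tested.

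Irradiated array 4 was low for Tcf4, at 0.09. Unirradiated array 1 was high for Cxadr at -1.44, Zbtb16 at 0.38, Gsta3 at 2.84, Cp at -0.47 and Echdc2 at -0.91, and low for C130036L24Rik at -2.93. Unirradiated array 3 was high for Cdt1 at 2.16, Relb at 2.29 and Brs3 at 1.71, and its progenitor list mean was low at -1.14. Unirradiated array 5 was high for Cox6a2 at 1.08.

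The change of Olfr1402 differed between genotypes by -2.00 (p38DKI minus p38WT, limma interaction, adjusted p = 0.0368).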

How the results depend on the processing

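Calls after leaving out 1 p38DKI array ranged from 4629 to 5825 genes, with 1821 to 2764 higher and 2808 to 3688 lower, and 0 to 48 genes differed between genotypes. Without unirradiated array 2 the total was lowest, at 4629, and the 48 came without irradiated array 5. Scaling moved the balance of directions most. Array median scaling gave 3809 higher and 1251 lower, and no scaling gave 3831 and 739. The percentile taken over probes detected on all arrays gave 1998 and 4584, quantile normalization 2541 and 3006, and the log2 values the authors deposited 2717 and 1967. Normexp background correction left 1419 genes (690 higher, 729 lower). Slide as a fixed block left 743 (471 and 272) and slide 4 alone 1301 (758 and 543), both by construction resting on few arrays that share a slide. With slide as a random block 61 genes differed between genotypes, against 2 with the hepatocyte covariate and 4 with no scaling. Leaving out irradiated array 1 or array 2 gave 2, and in every other setting that moved that count it was 0. The replicate block gave 5726 calls, and the sample titles link same-numbered samples only by that number. Cd4 turned in sign with no scaling, to 0.0011. The cause of these shifts was not tested. Genes dim in 1 group have only a bound, which belongs to the main processing, and array signal near background limits the size of their changes.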
